A study of Homo sapiens with 27 samples.

Results

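Human embryonic stem cells that lack working USB1 were given a remedy in 2 ways, and mature miRNAs were counted after each. One set of libraries came from USB1 mutant cells carrying hairpins against PAPD5 (shPAPD5), the other from USB1 mutant cells in which a wild-type USB1 transgene was switched on with doxycycline (iUSB1 +Dox). The comparison was made over every mature miRNA listed in both tables, which is 1442 of the 2276 miRNAs listed in any table of the series, with 3 libraries for shPAPD5 and 3 for iUSB1 +Dox. It asks how far the miRNA profiles reached by silencing the adenylating enzyme and by restoring the trimming enzyme differ from each other.

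All cells were H1, an established human embryonic stem cell line. The shPAPD5 cells carry the USB1 mutation c.531delA, made by CRISPR, and a constitutive cassette of 3 hairpins against PAPD5 at the AAVS1 safe harbour locus. The iUSB1 cells carry the same mutation and a doxycycline-inducible USB1 at AAVS1, sampled with (+Dox) and without (-Dox) the inducer, whose concentration is not given for these undifferentiated cells in the sources used here. The remaining stem cell groups are the USB1 mutant with neither addition and the unedited wild type (WT), again with 3 libraries each. The USB1 mutation is therefore shared by all groups except WT. The c.531delA line was grown from manually picked cells, and there is no group with a non-targeting hairpin, so an effect of carrying hairpins and an effect of losing PAPD5 cannot be told apart. The shPAPD5 and iUSB1 cells are different edited lines, so a difference between lines and a difference between remedies cannot be told apart. Doxycycline itself is present in the +Dox libraries only, and its effect cannot be told apart from that of USB1 either. The study calls its WT and mutant stem cell libraries biological replicates. Whether the replicates of each group were grown as independent cultures is not given, so a p-value here speaks only for the sequenced libraries, whose variation can be technical.

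A miRNA is a short RNA of about the length printed below that is cut from a hairpin precursor and guides Argonaute to messenger RNAs through its seed, the bases from the second to the eighth. Its level is set by transcription and processing and also by what happens at its 3' end. PAPD5 is a noncanonical poly(A) polymerase that adds adenosines to the 3' ends of RNAs, which can mark them for exonucleases. USB1 is a 3' exonuclease that removes such added bases. Biallelic loss of USB1 in people causes poikiloderma with neutropenia, an inherited bone marrow failure disorder.

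The sequences of the miRNAs that the results turn on are printed 5' to 3' with the seed in capitals. They are RefSeq mature sequences on GRCh38.p14, to which 889 of the 998 miRNAs tested could be matched. The first set is the miR-371 to miR-373 cluster, which stood furthest apart, with miR-302b-3p and miR-520a-3p, which share the seed of miR-372-3p and miR-373-3p and were not called. miR-371a-3p and miR-371b-3p have seeds of their own. miR-372-3p lies at chr19:53787931-53787953 and miR-373-3p at chr19:53788748-53788770, both on the plus strand. miR-371a-3p is at chr19:53787716-53787738 on the plus strand and miR-371b-3p at chr19:53787678-53787700 on the minus strand. miR-302b-3p comes from chr4:112648489-112648511 on the minus strand, and miR-520a-3p from chr19:53690933-53690954 on the plus strand.
miR-372-3p: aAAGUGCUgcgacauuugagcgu
miR-373-3p: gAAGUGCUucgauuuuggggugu
miR-302b-3p: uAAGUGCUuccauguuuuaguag
miR-520a-3p: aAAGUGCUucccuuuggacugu
miR-371a-3p: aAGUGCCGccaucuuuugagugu
miR-371b-3p: aAGUGCCCccacaguuugagugc

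The second set is of let-7 miRNAs, shown because members that differ by few bases after a common seed had differences of unlike size. let-7a-5p is made from MIRLET7A1, MIRLET7A2 and MIRLET7A3 on chromosomes 9, 11 and 22, and let-7i-5p from chr12:62603691-62603712 on the plus strand.
let-7a-5p: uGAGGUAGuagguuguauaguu
let-7f-5p: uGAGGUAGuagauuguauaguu
let-7i-5p: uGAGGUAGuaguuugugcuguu

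The third set holds other miRNAs whose level differed, the last of them in the downward direction. miR-9-5p comes from 3 precursors on chromosomes 1, 5 and 15, miR-1-3p from precursors on chromosomes 18 and 20, miR-146a-5p from chr5:160485372-160485393 on the plus strand and miR-592 from chr7:127058148-127058169 on the minus strand.
miR-9-5p: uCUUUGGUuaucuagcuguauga
miR-1-3p: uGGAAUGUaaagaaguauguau
miR-146a-5p: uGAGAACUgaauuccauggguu
miR-592: uUGUGUCAauaugcgaugaugu

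The fourth set holds the miRNAs the study followed in blood formation. miR-125a-5p is at chr19:51693268-51693291 on the plus strand and miR-142-5p at chr17:58331283-58331303 on the minus strand, while miR-125b-5p and miR-199a-3p each have more than 1 precursor.
miR-125a-5p: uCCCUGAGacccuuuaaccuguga
miR-125b-5p: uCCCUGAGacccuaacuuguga
miR-199a-3p: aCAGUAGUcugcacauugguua
miR-142-5p: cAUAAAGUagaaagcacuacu

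Total counts ran from 12258450 to 18793438 in the shPAPD5 libraries and from 14054485 to 18323281 in the iUSB1 +Dox libraries. Levels are given as CPM, the read count of a miRNA divided by library size, with sizes scaled with the trimmed mean of M values (TMM) over the 15 stem cell libraries. Of the 1442 miRNAs, 998 were in the tables of all 5 stem cell groups and passed the count filter, 253 were under the filter with at most 53 counts over the 6 libraries, and 191 were missing from at least 1 of the other tables. A further 166 miRNAs were listed for shPAPD5 only and 224 for iUSB1 +Dox only, none of them above 39 counts over its 3 libraries. The pluripotency miRNAs of the miR-302 and miR-367 cluster made up 384400 to 444700 CPM in shPAPD5 and 429600 to 477600 CPM in iUSB1 +Dox, so the defining miRNAs of the labelled cell type were abundant. WT library 1 and USB1 mutant library 1 stood apart from their groups: miR-372-3p, for example, was at 6181 CPM in WT library 1 and at 404.7 and 402 CPM in the other WT libraries. Both libraries entered the fit across 15 libraries through its shared estimate of spread, so the results are given with and without them.

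What stood apart between shPAPD5 and iUSB1 +Dox was mainly higher in shPAPD5. By the fit of the 6 libraries, the 3' arms of the miR-371 to miR-373 cluster were 8.66- to 12.7-fold higher, let-7a-5p 3.25-fold, and miR-9-5p, miR-1-3p and miR-146a-5p 1.89-, 2.21- and 2.22-fold. The number called differed with the libraries that entered the fit. With edgeR's quasi-likelihood test over all 15 stem cell libraries, 0 of 998 miRNAs (0%) passed a Benjamini-Hochberg adjusted p of 0.05, the smallest adjusted p being 0.145. In that fit 117 (11.7%) had an unadjusted p under 0.05, of which 67 (6.71%) were higher in shPAPD5 and 50 (5.01%) lower, and DESeq2 on the same libraries called 13 (1.30%).

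The same edgeR test fitted to the 6 libraries compared called 34 of 904 miRNAs (3.76%), with 29 higher in shPAPD5 (3.21%) and 5 lower (0.553%). DESeq2 on these 6 libraries called 43, among them 33 of the 34. All 34 had the same sign in the fit of 15 libraries, where 33 of them had an unadjusted p under 0.05. The common biological coefficient of variation was 0.209 in the fit of 6 libraries and 0.283 in the fit of 15. A fit of 13 libraries without WT library 1 and mutant library 1, chosen after seeing the data, gave 0.211 and called 37 of 1023 miRNAs, 30 of the 34 among them. Those of the 34 not called there were miR-9-3p, miR-4791, miR-5011-3p and miR-12135. Called there but not among the 34 were miR-1298-5p, miR-2115-3p and miR-486-5p, all higher in shPAPD5. The others so called, miR-219a-2-3p, miR-302c-5p, miR-363-5p and miR-488-5p, were lower. Within the 6 libraries the count was 10 without iUSB1 +Dox library 2, 17 without shPAPD5 library 2 and 19 without iUSB1 +Dox library 1, and 8 miRNAs were called in all 6 such fits. These were miR-371a-3p, miR-371a-5p, miR-371b-3p, miR-372-3p, miR-373-3p, let-7a-5p, miR-9-5p and miR-1-3p. The fit of 15 libraries was planned as the main test and that of 6 libraries as an alternative. Below, "called" refers to the fit of 6 libraries unless another is named. No miRNA called in it passed the edgeR test over 15 libraries, also where no value from that fit is printed. The 13 miRNAs called by DESeq2 over 15 libraries were all among the 34 except miR-205-5p.

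**Figure D1:**
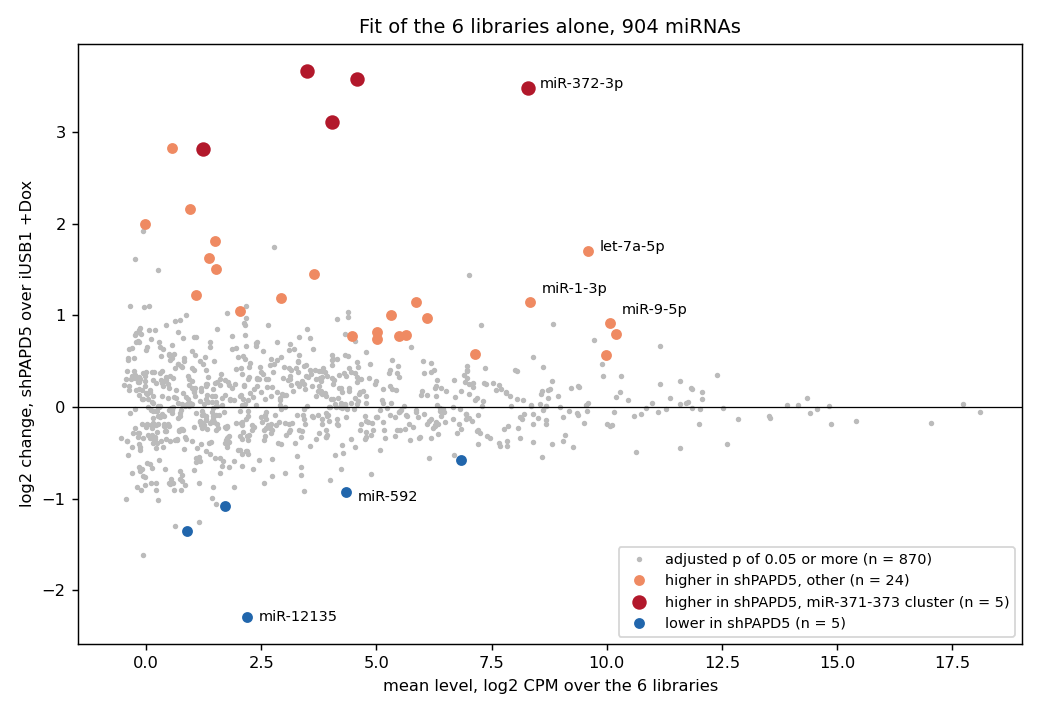
Each point is 1 of the 904 miRNAs tested in the 6 libraries, placed by its mean level (log2 CPM, x axis) and its log2 difference of shPAPD5 over iUSB1 +Dox (y axis), with called miRNAs in colour. The 5 tested members of the miR-371 to miR-373 cluster lie at 2.81 to 3.66, with miR-372-3p the most abundant of them, 24 others were called higher and 5 lower, and the remaining 870 were not called.

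Without regard to any test, 129 of the 998 miRNAs (12.9%) were higher in each shPAPD5 library than in every iUSB1 +Dox library and 110 (11.0%) were lower in each. The sign of the log2 difference was positive for 494 (49.5%), and its median was -0.00. Positive and negative differences were thus about equally frequent on the TMM scale, which itself centres the differences near 0. In the fit of 6 libraries, also scaled by TMM, 54.3% were positive and the median was 0.03. Scaled to library totals instead, the median over all miRNAs was 0.07 and 57.3% were positive.

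The miR-371 to miR-373 cluster on chromosome 19 is expressed in human pluripotent cells and the placenta, and miR-372 and miR-373 share a seed with the miR-302 family that promotes cell cycle progression in stem cells. miR-372-3p stood at 687.2, 426.5 and 542.1 CPM in shPAPD5, against 50.11, 33.18 and 70.18 CPM in iUSB1 +Dox. The lowest shPAPD5 library was 6.08-fold above the highest +Dox library. The log2 difference was 3.43 with an SE of 0.93 over 15 libraries (edgeR adjusted p = 0.183) and 3.48 with an SE of 0.31 over the 6 libraries (95% interval 2.75 to 4.21, edgeR adjusted p = 0.00108). The DESeq2 fit of 15 libraries returned no adjusted p for it.

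The 3' arms of the neighbouring precursors went the same way at lower levels. miR-373-3p was at 23.45, 14.28 and 22.31 CPM in shPAPD5, against 2.038, 1.049 and 1.728 CPM in iUSB1 +Dox. miR-371a-3p was at 25.35, 27.65 and 31.34 CPM in shPAPD5, against 3.553, 2.295 and 4.133 CPM in iUSB1 +Dox. miR-371b-3p was at 33.48, 37.65 and 56.14 CPM in shPAPD5, against 4.912, 2.688 and 3.156 CPM in iUSB1 +Dox. None of the 3 overlapped between the groups. Over the 6 libraries their log2 differences were 3.66 for miR-373-3p, 3.11 for miR-371a-3p and 3.58 for miR-371b-3p, with edgeR adjusted p-values of 2.69e-06, 1.89e-06 and 1.89e-06. Over 15 libraries the differences were 3.62, 3.08 and 3.55, with SEs of 1.07, 1.02 and 1.27 and edgeR adjusted p-values of 0.193, 0.272 and 0.327.

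The 5' arms of the miR-371 pair were scarce. miR-371a-5p stood at 2.982, 3.225 and 5.357 CPM in shPAPD5, against 0.9406, 0.2623 and 0.3757 CPM in iUSB1 +Dox, and was called (log2 difference 2.81, SE 0.43, edgeR adjusted p = 0.00235). miR-371b-5p, below 1 CPM throughout, was separated too but was not tested in the 6 libraries, and its log2 difference over 15 libraries was 2.07 with an SE of 1.26. MIR371A and MIR371B lie on opposite strands of the same site, so reads of one may have been assigned to the other. All 6 members tested over 15 libraries were higher in each shPAPD5 library than in every +Dox library, with a median log2 difference of 3.26, where the median over all 998 was -0.00.

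The other stem cell groups place the cluster between these values. miR-372-3p was at 177, 216.7 and 113.9 CPM in iUSB1 -Dox and at 183.4, 147.7 and 135.2 CPM in the USB1 mutant. These 6 libraries lay below every shPAPD5 library and above every +Dox library, while the shPAPD5 libraries lay above the 404.7 and 402 CPM of WT libraries 2 and 3 and below the 6181 CPM of WT library 1. miR-371a-3p had the same order, with 7.917 to 14.65 CPM over the -Dox and mutant libraries and 23.99 and 25.08 CPM in WT libraries 2 and 3. For all 4 called 3' arms of the cluster, every iUSB1 +Dox library was below all other stem cell libraries of the series.

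**Figure D2:**
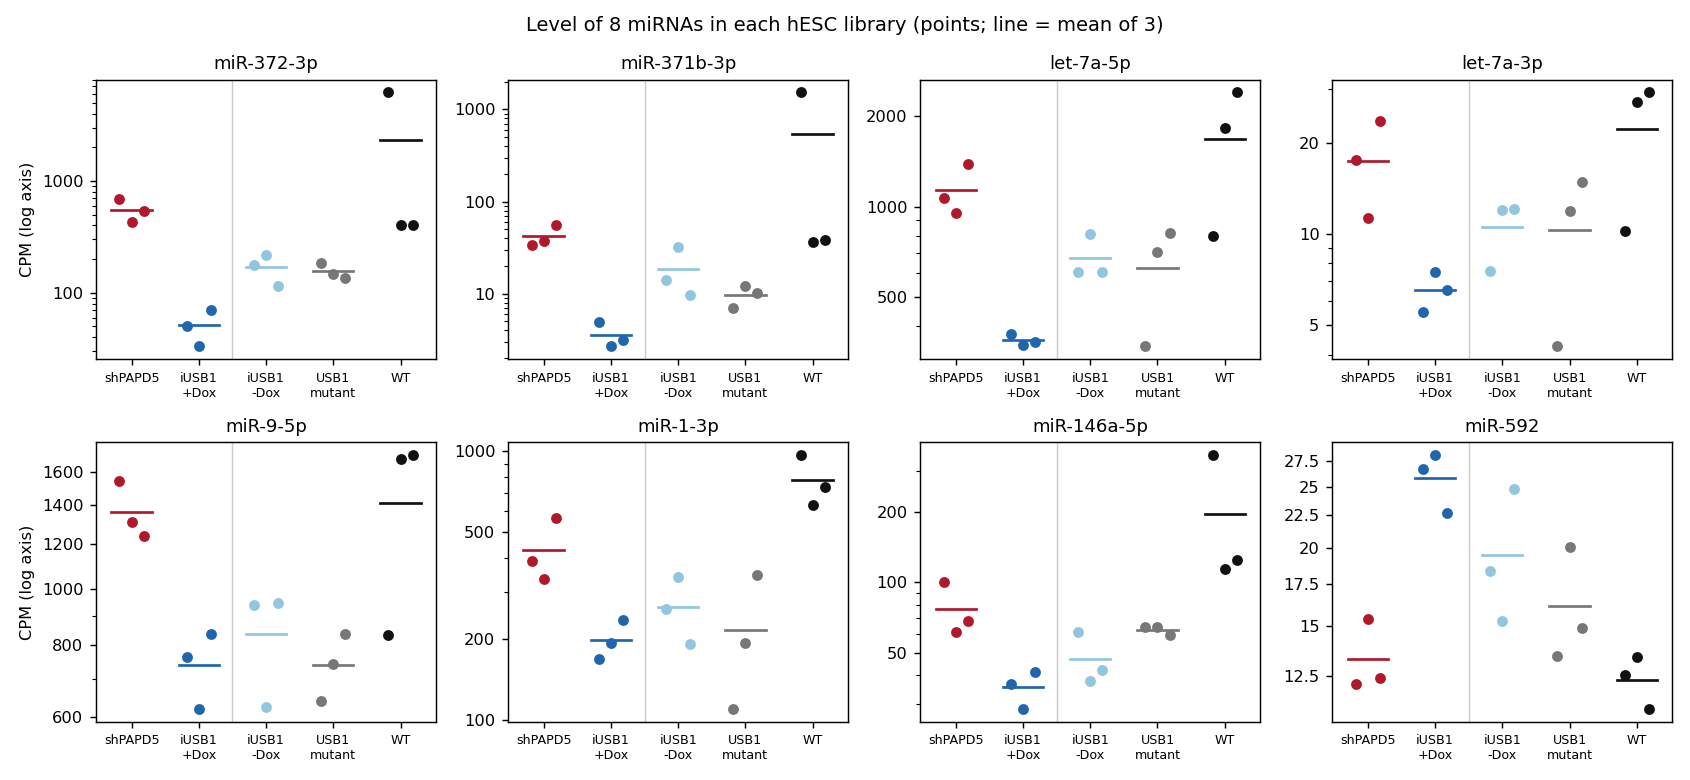
Levels of 8 miRNAs in every stem cell library (CPM, log axis), with 1 point per library, a line at each mean of 3 and groups from left to right shPAPD5, iUSB1 +Dox, iUSB1 -Dox, USB1 mutant and WT. miR-372-3p and miR-371b-3p are lowest in iUSB1 +Dox and have 1 WT library far above the rest, let-7a-5p separates shPAPD5 from +Dox, and miR-592 is higher in +Dox.

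Relatives with the same seed had a wide range of values. Of the 12 miRNAs tested with the seed AAGUGCU, which include miR-302a to miR-302e, miR-372, miR-373 and several miR-520 members, 7 had a positive log2 difference, the range was -0.28 to 3.62 and the median 0.10. miR-302b-3p, among the most abundant miRNAs of these cells, had 126100, 126300 and 109900 CPM in shPAPD5, against 115500, 137300 and 167200 CPM in iUSB1 +Dox. The groups overlapped, and the log2 difference over 15 libraries was -0.21 (95% interval -0.56 to 0.13). miR-302a-5p, the 5' arm of another precursor of the cluster, differed by 0.00 (95% interval -0.29 to 0.29). Across the 11 tested members of the miR-302 and miR-367 cluster the median log2 difference was -0.19, with 9 negative and 4 below in every library, beside 11.0% of all miRNAs below, and 0 were called. In the fit of 13 libraries miR-302c-5p was called lower (log2 difference -0.51, edgeR adjusted p = 0.0459).

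The primate-specific cluster C19MC, which lies beside miR-371 to miR-373 on chromosome 19 and is active in placenta and naive stem cells, was slightly higher in shPAPD5. Its summed level was 3239, 3725 and 3733 CPM in shPAPD5, against 2923, 2641 and 2817 CPM in iUSB1 +Dox, with no overlap. Of 58 members tested over 15 libraries, 57 had a positive log2 difference with a median of 0.30, and 21 were above in every library with 0 below, beside 12.9% and 11.0% of all miRNAs. The difference was small for each member, and 1 of the 57 tested in the 6 libraries was called, beside 3.21% of all miRNAs. This was miR-516b-5p, at 1045, 1234 and 1239 CPM in shPAPD5, against 736.6, 781 and 904.2 CPM in iUSB1 +Dox (log2 difference 0.57 over the 6 libraries, edgeR adjusted p = 0.0219). Many C19MC members are near-identical copies, so their counts are not independent of each other.

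The let-7 family, which is held down by LIN28 in pluripotent cells and accumulates on differentiation, was uneven. let-7a-5p stood at 1071, 954.5 and 1383 CPM in shPAPD5, against 374.5, 344.3 and 354.1 CPM in iUSB1 +Dox. The lowest shPAPD5 library was 2.55-fold above the highest +Dox library. The log2 difference was 1.67 with an SE of 0.35 over 15 libraries (edgeR adjusted p = 0.145, DESeq2 adjusted p = 0.00453) and 1.70 with an SE of 0.15 over the 6 libraries (edgeR adjusted p = 5.25e-06). Its passenger strand let-7a-3p had 17.56, 11.26 and 23.56 CPM in shPAPD5, against 5.539, 7.475 and 6.537 CPM in iUSB1 +Dox, and was also called (log2 difference 1.45 over the 6 libraries, edgeR adjusted p = 0.00719).

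let-7f-5p and let-7i-5p were not called. let-7f-5p had 141.3, 122.5 and 147.7 CPM in shPAPD5, against 98.29, 106.1 and 116.2 CPM in iUSB1 +Dox, a log2 difference of 0.36 over 15 libraries that was not called. let-7i-5p had 93.95, 102.7 and 124.8 CPM in shPAPD5, against 102.3, 112.6 and 119 CPM in iUSB1 +Dox, a log2 difference of -0.05. The groups were apart for let-7f-5p and overlapped for let-7i-5p. let-7c-5p had 21.55, 19.83 and 39.26 CPM in shPAPD5, against 17.03, 12.98 and 9.918 CPM in iUSB1 +Dox, again apart. Its log2 difference was 1.01 with an SE of 0.45 over 15 libraries (edgeR adjusted p = 0.402) and 1.04 over the 6 libraries, where edgeR did not call it (adjusted p = 0.0669) and DESeq2 did (adjusted p = 0.013). let-7g-5p differed by 0.26 over 15 libraries. Of the 9 let-7 members on the list, 6 were positive with a median of 0.36, 4 were above in every library, beside 12.9% of all miRNAs, and edgeR called 1 listed member, let-7a-5p, beside 3.21%. Mature let-7 sequences differ by few bases, and counts may be split between them.

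let-7a-5p in the remaining groups was at 606.2, 808.8 and 605.7 CPM in iUSB1 -Dox, at 341.6, 708.1 and 815.8 CPM in the USB1 mutant and at 800.6, 1823 and 2405 CPM in WT. The +Dox libraries were below all 3 -Dox libraries, and the shPAPD5 libraries were above all 3 mutant libraries. The WT and mutant libraries with the lowest let-7a-5p were the same 2 that stood apart in other respects.

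miRNAs of differentiated tissues were also among those called. miR-9-5p, a miRNA of neural progenitors, stood at 1542, 1306 and 1237 CPM in shPAPD5, against 762.5, 620.4 and 836.7 CPM in iUSB1 +Dox. Its log2 difference was 0.88 with an SE of 0.24 over 15 libraries (edgeR adjusted p = 0.183) and 0.92 with an SE of 0.15 over the 6 libraries (edgeR adjusted p = 0.00346). The passenger strand miR-9-3p was called as well, at 74.49, 59.43 and 48.58 CPM in shPAPD5, against 40.86, 27.6 and 40.58 CPM in iUSB1 +Dox. It did not pass over 15 or 13 libraries (edgeR adjusted p = 0.34 and 0.0837). Both arms of miR-9 were thus higher without overlap. miR-124-3p, another neural marker, was lower instead and was not called (log2 difference -0.35 over the 6 libraries).

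miR-1-3p, characteristic of heart and skeletal muscle, stood at 392.5, 335.8 and 565 CPM in shPAPD5, against 169, 192.8 and 235.9 CPM in iUSB1 +Dox. It was called with a log2 difference of 1.15 over the 6 libraries (SE 0.19, edgeR adjusted p = 0.00413), while over 15 libraries the difference was 1.11 with an SE of 0.34 (edgeR adjusted p = 0.183). miR-133a-3p, transcribed with miR-1 in muscle, differed by 1.10 over the 6 libraries (edgeR adjusted p = 0.0996). Of the 10 miRNAs listed as germ layer markers, 7 were positive with a median of 0.29 and 3 were called higher, beside 3.21% of all miRNAs. Those called were miR-1-3p and both arms of miR-9, which come from shared precursors. Among the 3 negative, the liver marker miR-122-5p differed by -0.65 over the 6 libraries, with overlap between the groups. The summed level of the 10 was 10040 to 15180 CPM in shPAPD5 and 11300 to 14770 CPM in iUSB1 +Dox, which overlapped. Most of that sum is miR-7-5p, which was not called, so it says little of the other members. In bulk libraries more cells of a type and more of a miRNA per cell cannot be told apart.

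Another 4 miRNAs called higher are known from immunity, blood, mesenchymal cells or skin. miR-146a-5p, a brake on NF-kB signalling, stood at 100.3, 61.02 and 68.18 CPM in shPAPD5, against 36.84, 28.65 and 41.1 CPM in iUSB1 +Dox (log2 difference 1.15 over the 6 libraries, edgeR adjusted p = 0.00719). miR-486-3p, from a precursor abundant in red cells, had 44.6, 31.04 and 42.86 CPM in shPAPD5, against 24.45, 18.23 and 26.6 CPM in iUSB1 +Dox (edgeR adjusted p = 0.0345). Its partner miR-486-5p did not pass over the 6 libraries, with 265, 138.2 and 171.6 CPM in shPAPD5, against 99.23, 83.99 and 136.4 CPM in iUSB1 +Dox. Over 13 libraries it was called (edgeR adjusted p = 0.0459). Both arms of miR-486 were above in every shPAPD5 library. miR-199b-5p, of mesenchymal cells, and miR-203a-3p, of stratified epithelium, differed by 0.78 and 0.77 over the 6 libraries. miR-205-5p, another epithelial miRNA, had 312.8, 112.4 and 106.8 CPM in shPAPD5, against 64.53, 56.19 and 83.03 CPM in iUSB1 +Dox. It was not called over the 6 libraries by edgeR (adjusted p = 0.245) and was called by DESeq2 over 15 (adjusted p = 0.0354).

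For miRNAs with no tissue role given here, both arms of miR-653 were called. miR-653-5p had 50.9, 45.05 and 58.42 CPM in shPAPD5, against 29.89, 22.23 and 26.45 CPM in iUSB1 +Dox. miR-653-3p had 10.17, 9.306 and 10.57 CPM in shPAPD5, against 4.755, 4.065 and 4.659 CPM in iUSB1 +Dox. Their log2 differences over the 6 libraries, 1.01 and 1.19, were close to each other. Only 1 arm of miR-548g was called. miR-548g-3p had 92.73, 87.4 and 79.19 CPM in shPAPD5, against 44.52, 36.59 and 55.15 CPM in iUSB1 +Dox, and was called (log2 difference 0.97, edgeR adjusted p = 0.00533), while miR-548g-5p differed by 0.10 over 15 libraries. The remaining calls upward were miR-139-5p, miR-193a-5p, miR-330-3p and 7 scarcer miRNAs with a mean log2 CPM of -0.01 to 1.53, miR-326, miR-3150b-3p, miR-3662, miR-3943, miR-548ba, miR-6505-5p and miR-10524-5p. miR-4791 had 1404, 1330 and 1607 CPM in shPAPD5, against 699.5, 835.7 and 1024 CPM in iUSB1 +Dox (edgeR adjusted p = 0.00822, and 0.246 over 13 libraries).

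The 5 miRNAs called lower in shPAPD5 came from different loci. miR-592 stood at 12.13, 15.39 and 12.4 CPM in shPAPD5, against 26.7, 28.06 and 22.69 CPM in iUSB1 +Dox. Its log2 difference was -0.95 with an SE of 0.22 over 15 libraries (edgeR adjusted p = 0.145, DESeq2 adjusted p = 0.0108) and -0.92 over the 6 libraries (edgeR adjusted p = 0.00927). In the other groups miR-592 lay between 11.08 and 24.8 CPM, so the 2 highest of the 15 values were iUSB1 +Dox libraries. miR-708-3p had 86.83, 97.24 and 81.76 CPM in shPAPD5, against 140.1, 138.9 and 127.1 CPM in iUSB1 +Dox (edgeR adjusted p = 0.0358).

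miR-204-3p, the passenger strand of a miRNA of retinal pigment epithelium, was at 1.898, 2.115 and 1.761 CPM in shPAPD5, against 4.233, 4.786 and 3.532 CPM in iUSB1 +Dox. The guide strand miR-204-5p was lower too, at 159, 208.1 and 193.2 CPM in shPAPD5, against 256.7, 278.1 and 235.4 CPM in iUSB1 +Dox, without passing the test (edgeR adjusted p = 0.13 over the 6 libraries). miR-12135 had 2.305, 1.11 and 0.9541 CPM in shPAPD5, against 4.128, 10.36 and 7.439 CPM in iUSB1 +Dox, and miR-5011-3p had 0.8134, 1.005 and 0.9541 CPM in shPAPD5, against 1.881, 2.754 and 2.705 CPM in iUSB1 +Dox. Their log2 differences over the 6 libraries were -2.28 and -1.35, and neither passed over 13 libraries (edgeR adjusted p = 0.2145 and 0.0983). All 5 were lower in each shPAPD5 library than in any +Dox library.

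The miRNAs that the study followed in blood formation were not called, and their groups overlapped. miR-125a-5p, which supports blood stem cell number, had 293, 195.8 and 206.1 CPM in shPAPD5, against 196.2, 253.9 and 260.7 CPM in iUSB1 +Dox (log2 difference -0.03 over 15 libraries, 95% interval -0.43 to 0.37). miR-125b-5p, which shares its seed, had 19.32, 15.49 and 19.52 CPM in shPAPD5, against 16.36, 18.23 and 21.72 CPM in iUSB1 +Dox (log2 difference -0.05, 95% interval -0.51 to 0.41). The groups overlapped for both, and the intervals leave room for differences of about 0.4 to 0.5 on the log2 scale in either direction.

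miR-199a-3p had 17.28, 12.48 and 16.95 CPM in shPAPD5, against 13.74, 10.43 and 11.42 CPM in iUSB1 +Dox, a log2 difference of 0.39 (edgeR adjusted p = 0.575). It shares its sequence with miR-199b-3p, so its counts may come from either. miR-142-5p, a miRNA of white blood cells, was near the limit of detection at 1.695, 0.5816 and 1.174 CPM in shPAPD5, against 0.418, 0.459 and 1.127 CPM in iUSB1 +Dox, and its interval of -0.56 to 2.15 is wide. None of the 4 was called by the fits of 15, 13 or 6 libraries, and miR-223-3p, also followed in the study, was under the count filter at 4 to 9 counts per library. The other strands of these precursors had log2 differences of -0.22 for miR-125a-3p, -0.20 for miR-125b-1-3p, 0.40 for miR-125b-2-3p, 1.05 for miR-142-3p and 0.38 for miR-199a-5p over 15 libraries.

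**Figure D3:**
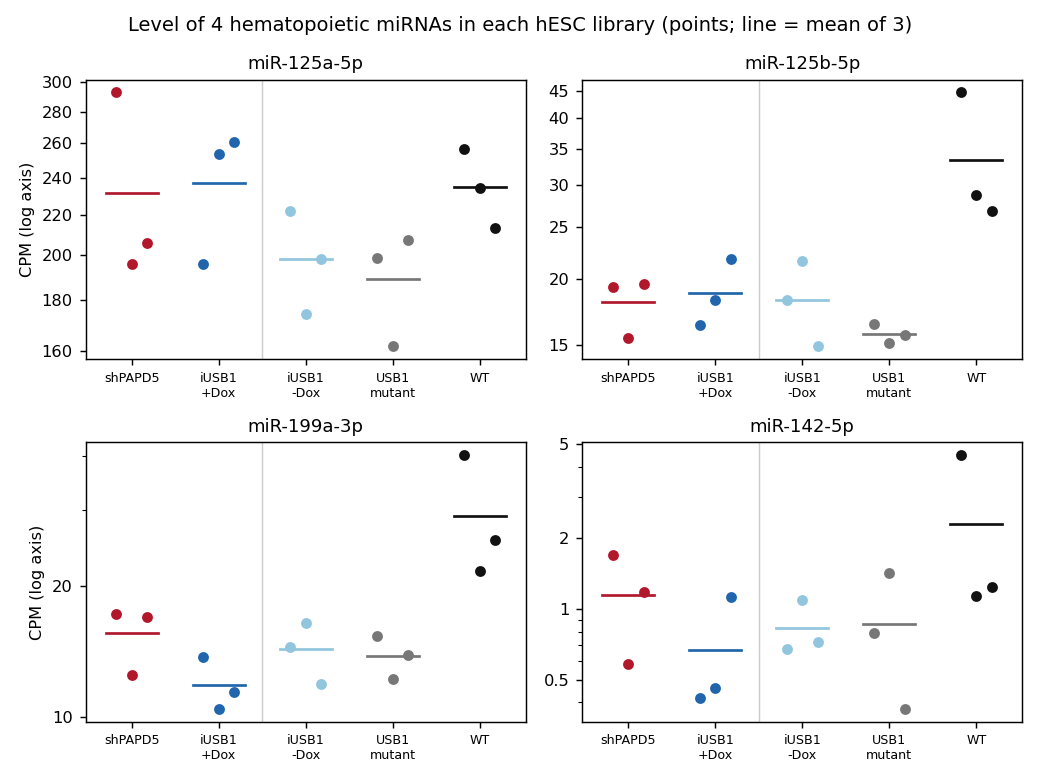
Levels of miR-125a-5p, miR-125b-5p, miR-199a-3p and miR-142-5p in every stem cell library (CPM, log axis), with 1 point per library, a line at each mean of 3 and groups from left to right shPAPD5, iUSB1 +Dox, iUSB1 -Dox, USB1 mutant and WT. The shPAPD5 and +Dox points overlap in all 4 panels, with miR-125a-5p between 195.8 and 293 CPM in these 6 libraries.

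Marker lists of other cells were read beside these values. The 16 tested miRNAs of the blood lineage list had a median log2 difference of 0.35 over 15 libraries, which was 0.64 without iUSB1 +Dox library 3. Of these, 12 were positive, 6 were above in every library, beside 12.9% of all miRNAs, and 2 were called higher, beside 3.21%. Their summed level was 8922 to 9630 CPM in shPAPD5 and 8423 to 9333 CPM in iUSB1 +Dox. The fibroblast list, which covers feeder cells as far as human and mouse miRNAs share sequence, had a median of 0.19 with 5 of 9 positive. Of its members 1, miR-199b-5p, was called higher, beside 3.21%. Its summed level was 22560 to 24090 CPM in shPAPD5 and 20880 to 29750 CPM in iUSB1 +Dox. Nearly all of that sum is miR-21-5p, so it says little of the other members. The arms of miR-21 alone summed to 22050 to 23620 CPM in shPAPD5 and 20560 to 29020 CPM in iUSB1 +Dox. The sums overlapped for both lists, and their part in the results was not tested. The miRNAs induced by p53 had a median of 0.40 with 6 of 9 positive, the miR-200 family 0.22 and the miR-30 family 0.16. The miR-17/92 family at -0.07 and the family that includes miR-100 and miR-125 at -0.00 changed sign with the scaling.

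**Figure D4:**
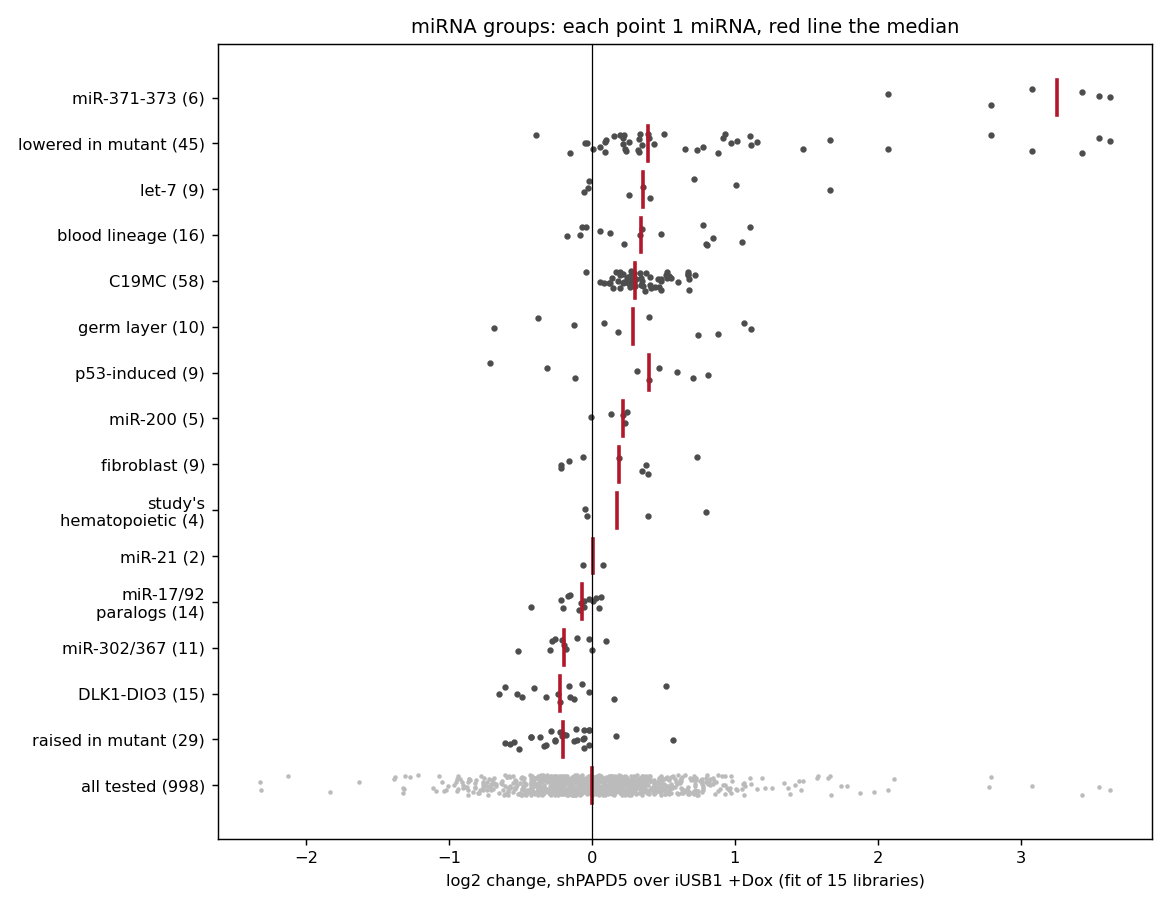
Log2 difference of shPAPD5 over iUSB1 +Dox in the fit of 15 libraries for each tested member of 15 lists of miRNAs and for all 998, with 1 point per miRNA and a red line at each list's median. The miR-371 to miR-373 list stands apart at a median of 3.26, and the medians of the other lists lie between -0.22 and 0.40, among them C19MC at 0.30 and the miR-302 and miR-367 cluster at -0.19.

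The miRNAs that the USB1 mutation itself moved were lined up with the comparison. Over 15 libraries edgeR called 29 miRNAs higher (2.91%) and 45 lower (4.51%) in the USB1 mutant than in WT. Of the 45 lowered by the mutation, 41 had a positive log2 difference of shPAPD5 over iUSB1 +Dox, 23 were above in every library and the median was 0.39. In the 6 libraries, 15 of the 43 of them tested were called higher and 0 lower, beside 3.21% and 0.553% of all miRNAs. Without the miR-371 to miR-373 members this was 10 of 38, with a median of 0.37. The contrast behind this list was of the mutant and WT libraries. Its filter, scaling and estimate of spread came from all 15 libraries, so the list is not fully independent of the 6 compared.

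Of the 29 raised by the mutation, 27 were negative with a median of -0.20, 9 were below in every library, beside 11.0% of all miRNAs, and 1, miR-708-3p, was called lower, beside 0.553%. The lists depend on WT library 1 and mutant library 1. Rebuilt without them, 43 miRNAs were lowered by the mutation, 31 of them as before, and 16 of 41 tested were called higher, with a median of 0.57. Only 9 were raised, 6 of them as before, with a median of -0.33 and 1 called lower.

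Each remedy was also set against its own starting cells, which involve 4 separate groups. Over 15 libraries edgeR called 0 of 998 (0%) for shPAPD5 over the USB1 mutant, with 116 (11.6%) at an unadjusted p under 0.05 and 8 (0.802%) called by DESeq2. For iUSB1 +Dox over -Dox it called 0 (0%), with 45 (4.51%) at an unadjusted p under 0.05 and 1 (0.100%) called by DESeq2. The difference between these effects gave 0 calls (0%), 79 (7.92%) at an unadjusted p under 0.05 and 5 (0.501%) by DESeq2. For iUSB1 -Dox over the mutant, which are the starting cells, edgeR called 0 (0%), with 89 at an unadjusted p under 0.05, and DESeq2 called 2.

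Fitted on the groups compared alone, shPAPD5 over the mutant gave 4 calls by edgeR, all in one cluster. These were miR-371a-3p, miR-371b-3p, miR-372-3p and miR-373-3p, with log2 differences of 1.61, 2.15, 1.86 and 2.28. iUSB1 +Dox over -Dox gave 3 calls, all lower with doxycycline, let-7a-5p at -0.92, miR-371a-3p at -1.81 and miR-3662 at -1.81. Of the cluster, miR-371a-3p was thus called in each of the comparisons, higher in shPAPD5 than in the mutant and lower in iUSB1 +Dox than in -Dox. The medians of its 6 members over 15 libraries were 1.88 for shPAPD5 over the mutant and -1.76 for iUSB1 +Dox over -Dox. The difference between the effects, fitted on the 4 groups over every miRNA in their tables, was called for miR-371a-3p, miR-371a-5p, miR-371b-3p, miR-372-3p and miR-373-3p at 3.41 to 4.51, for let-7a-5p at 1.81 and for miR-5011-5p at -4.03. In the fit of 13 libraries, without WT library 1 and mutant library 1, the counts were 3 for shPAPD5 over the mutant, 4 for iUSB1 +Dox over -Dox and 12 for the difference.

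For the miRNAs lowered by the mutation the medians were 0.51 for shPAPD5 over the mutant and -0.20 for iUSB1 +Dox over -Dox. For those raised by it they were -0.48 and 0.07, and over all miRNAs -0.03 and 0.01. The first value of each pair uses the mutant libraries that also set the lists and is not independent of them. C19MC was at -0.22 and -0.38. Its summed level of 3239, 3725 and 3733 CPM in shPAPD5 overlapped the 3752, 3518 and 3499 CPM of the mutant, while the 2923, 2641 and 2817 CPM in iUSB1 +Dox lay below the 3347, 3735 and 3479 CPM in -Dox.

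Against WT, edgeR over 15 libraries called 0 of 998 (0%) for shPAPD5 and 82 (8.22%) for iUSB1 +Dox. The smallest edgeR adjusted p for shPAPD5 was 0.051, just above the threshold. For shPAPD5, 130 had an unadjusted p under 0.05, and DESeq2 called 26 of the 604 miRNAs to which it gave an adjusted p. For iUSB1 +Dox, 232 had an unadjusted p under 0.05, and DESeq2 called 30 higher and 82 lower of 912. The DESeq2 counts thus rest on different numbers of miRNAs. Neither comparison with WT was refitted without WT library 1 and mutant library 1. These comparisons share the WT libraries, including library 1, and the test of whether they differ is the direct comparison of shPAPD5 with iUSB1 +Dox given above.

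By the last base of the mature sequence, medians lay close to that of all miRNAs. The median log2 difference of shPAPD5 over iUSB1 +Dox was 0.03 for the 166 miRNAs whose RefSeq sequence ends in A, -0.04 for the 173 ending in C, -0.00 for the 267 ending in G and -0.00 for the 283 ending in U. By length it was -0.07 for 236 miRNAs of up to 21 bases, -0.02 for 452 of 22 bases and 0.10 for 201 of 23 or more. At an unadjusted p under 0.05 over 15 libraries, 10 of the shortest were higher and 17 lower, against 33 and 22 of those of 22 bases and 15 and 3 of the longest. Those 15 include the 4 called 3' arms of the miR-371 to miR-373 cluster, which come from neighbouring precursors. By seed, families with at least 3 members at a mean log2 CPM of 3 or more were read. Their medians ran as high as 0.38 for the 3 members with UCGUGCA, which belong to C19MC. All 10 miRNAs with UCUAGAG, also of C19MC, were positive with a median of 0.28. Of the 9 tested with the let-7 seed GAGGUAG, the 7 at that level ran from -0.05 to 1.67. The tables count reads per mature miRNA and hold no tail lengths, so added adenosines were not measured here.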

How the data were processed

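Small RNA libraries of H1 cells were made by the authors from Trizol RNA with a Lexogen kit and sequenced on a NovaSeq. Per the submitters' processing notes and the study's methods, reads were trimmed with cutadapt 2.5 and aligned with Bowtie2 2.2.9 to miRBase v22, with SAMtools 1.3.1 used on the alignments. The files as deposited hold unnormalised read counts for each mature miRNA, 1 table for each group of 3 libraries, and each table lists only miRNAs with a count in its first library. Reads with added bases at the 3' end may be lost or kept depending on the alignment, which would change a count. Adaptor entries, 0.00478% to 0.0179% of counts, were removed. Counts were analysed in R 4.3.3 with edgeR 4.0.16 (TMM scaling, low-count filter, robust quasi-likelihood test, Benjamini-Hochberg adjustment), over the 15 stem cell libraries and over the 6 compared, with DESeq2 1.42.0 as an alternative; calls are at an adjusted p under 0.05. SE is the log2 difference over the square root of F. The scripts were tested on simulated data. Named miRNAs were to be the miRNAs of the study's own interest and their other strands, the 10 largest called changes in each direction with no overlap and a mean log2 CPM of at least 3, up to 4 abundant members of each list, and the other arms. miRNAs called at lower levels, smaller changes, calls over 13 libraries only, miR-122-5p, miR-124-3p, miR-205-5p, miR-3662 and miR-5011-5p were named after their values were seen. The members and lists were chosen with earlier results of these data known. Replicate numbers did not pair the libraries. Alternatives were scalings, filters, the block, left-out libraries and DESeq2.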

Additional observations from a re-analysis of the deposited data

How the results depend on the processing

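Over 15 libraries edgeR called 0 miRNAs for each of shPAPD5 over iUSB1 +Dox, shPAPD5 over the mutant, iUSB1 +Dox over -Dox and the difference of these effects, and other settings gave more. For shPAPD5 over iUSB1 +Dox the counts were 13 with DESeq2, 1 with library totals, 34 with only the groups compared or with every miRNA in their tables, and 37 without WT library 1 and mutant library 1, a setting chosen after seeing the data. In the same settings shPAPD5 over the mutant gave 8, 5, 4, 4 and 3. iUSB1 +Dox over -Dox gave 1 with DESeq2, 3 with only the groups compared or with every miRNA in their tables, and 4 without those libraries. The difference gave 5 with DESeq2, 6 with library totals, 8 with only the groups compared, 7 with every miRNA in the tables and 12 without those libraries, and it ran from 0 to 5 when single libraries were left out. The fit of 6 libraries, with 34 calls, gave 22 with a strict filter, which tests fewer miRNAs, and 10 to 33 when single libraries were left out, which leaves fewer samples (17 without shPAPD5 library 2, 19 without iUSB1 +Dox library 1). The cause of the other differences was not tested.

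The replicate numbers share only a number: deviations from the group means correlated between shPAPD5 and iUSB1 +Dox libraries of the same number at -0.060, 0.062 and -0.074. With the replicate block the 4 comparisons over 15 libraries still gave 0 calls, with smallest edgeR adjusted p-values of 0.0574, 0.147, 0.0727 and 0.0541, and the fit of 6 libraries gave 27. When single libraries were left out, the log2 difference crossed 0 for miR-381-3p (-0.506 to 0.134), miR-21-5p (-0.15 to 0.107) and miR-143-3p (-0.484 to 0.42), each positive without iUSB1 +Dox library 3, for miR-21-3p (-0.23 to 0.265, negative without shPAPD5 library 1), for miR-200b-5p (-0.207 to 0.287, negative without shPAPD5 library 3), and for miR-125a-5p over the 6 libraries (-0.227) without shPAPD5 library 1. Depth limits miRNAs under about 1 CPM, such as miR-142-5p, whose intervals are wide.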
